A study of Homo sapiens with 4 samples.

Results

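The receptor tyrosine kinases outside the ERBB family were described in CAPAN2 cells, an established human pancreatic ductal adenocarcinoma line, on arrays labelled LLGL1 shRNA and on control arrays. The members were taken by name as 48 genes in 13 groups by class, among them the receptors for GAS6, HGF, FGF, PDGF, SCF, VEGF, insulin, neurotrophins, collagen, angiopoietins and ephrins. Of these, 46 were measured among the 19775 genes with a probe set assigned to a single symbol. DDR1 was not, because each of its 4 probe sets carries 2 symbols, MIR4640 and DDR1, and EPHB2 was not analysed here.

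Receptor tyrosine kinases are single-pass membrane proteins with an extracellular ligand-binding part and an intracellular kinase. Ligand binding brings receptors together, the kinases phosphorylate each other, and adaptors such as GRB2, GAB1 and the IRS proteins dock on the phosphotyrosines and pass the signal to RAS and PI3K until phosphatases, CBL ligases and SPRY proteins end it. In pancreatic cancer, MET and AXL are the members best known for roles in invasion and resistance to therapy, whereas the PDGF and VEGF receptors are mainly receptors of stromal and vascular cells.

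The study asked what depletion of LLGL1, a scaffold protein of epithelial cell polarity, does to transcript levels. One group was CAPAN2 given lentivirus with shRNAs against LLGL1 (2 arrays), and the other CAPAN2 given a control lentivirus (2 arrays). Both were grown in 10% serum and exposed overnight to virus with 8 µg/ml hexadimethrine bromide. How many shRNAs were used, whether cells were clones or pools, and the time between transduction and harvest were not found in the labels. Sample titles carry another reagent name, NC and siLLGL1, and the shRNA wording of the other labels is kept here.

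LLGL1 itself read 6.73 and 6.71 (log2 signal) on the arrays labelled LLGL1 shRNA, against 6.83 and 6.86 on the control arrays. The difference of -0.12 did not pass limma's test (95% interval -0.27 to 0.02, adjusted p = 0.22), and the dimmer LLGL1 probe sets differed by 0.09 and 0.06. Depletion of the targeted transcript was therefore not seen, and each direction below is between arrays as labelled. Array medians over all deposited probe sets were 2.95 to 2.98. Keratin and junction genes of duct cells were bright, apart from KRT7 on the control arrays, at 4.28 and 4.30. The 9 epithelial and ductal markers summed to 84.3 and 84.5 on the LLGL1 shRNA arrays, against 84.9 on both control arrays. Among these 9, KRT7 rose by 1.62 and CDH1 and KRT19 fell by 0.47 and 0.61. In all, 2 differences were positive and 7 negative, so the sums mask opposite directions. At an unadjusted p below 0.05 in limma's test, 1 was higher and 5 were lower. The arrays of the groups did not overlap for 1 higher and 6 lower (66.7% lower, against 38.2% of genes of mean log2 at least 5). None of 7 fibroblast, 5 endothelial or 5 immune markers passed limma's test, with 2 of the fibroblast markers and none of the others at an unadjusted p below 0.05. Across all genes 6.28% passed limma's test, and 14.5% were higher and 13.7% lower at an unadjusted p below 0.05. Of 5 neural markers TUBB3 rose by 0.54, and their sum was 22.4 and 23.8 on the LLGL1 shRNA arrays, against 21.5 and 21.9 on the control arrays. Ribosomal 18S control probe sets were lower on the LLGL1 shRNA arrays by 1.97 on the log2 scale (mean of 3), and poly-A spike probe sets by 1.14 (mean of 24). The part of these shifts in the receptor differences was not tested. Fewer cells of a kind and less RNA per cell cannot be told apart in bulk RNA. The labels call the arrays of a group biological replicates without naming separate cultures, so each p-value reflects how far apart these arrays lie and may carry technical spread only.

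AXL rose and FGFR1 fell on the arrays labelled LLGL1 shRNA, and no other measured receptor gene passed the test. These 2 of 46 receptor genes (4.35%) compare with 6.28% of all 19775 genes, so the share called was near the background. By direction, 1 receptor gene rose (background 3.21%) and 1 fell (background 3.07%). The median difference of the 46 genes was -0.00051 on the log2 scale, against 0.01 for all genes, with 23 positive and 23 negative, and 35 of the 46 differed by under 0.2. The arrays of the groups did not overlap, higher on LLGL1 shRNA, for 12 receptor genes (background 27.7%), and lower for 11 (background 24.7%). At an unadjusted p below 0.05 there were 5 receptor genes higher (background 14.5%) and 8 lower (background 13.7%).

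Signal strength divided the receptor genes into those the arrays saw well and those near the floor. The mean log2 signal over the 4 arrays ran from 1.12 to 8.31 with a median of 3.65, against 4.33 for all genes. It was at least 5 for 14 receptor genes and below 3 for 16. Brightness of a probe set also depends on its sequence, so it does not rank transcripts of different genes. Of the 14 bright genes, 1 was called (7.14%, against 11.2% of the 8379 genes that bright). Their arrays did not overlap in 3 cases higher (background 36.5%) and in 8 cases lower (background 38.2%), and their median difference was -0.10 against -0.0029 for all genes that bright. In the other 32, AXL was the only gene called.

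**Figure D1:**
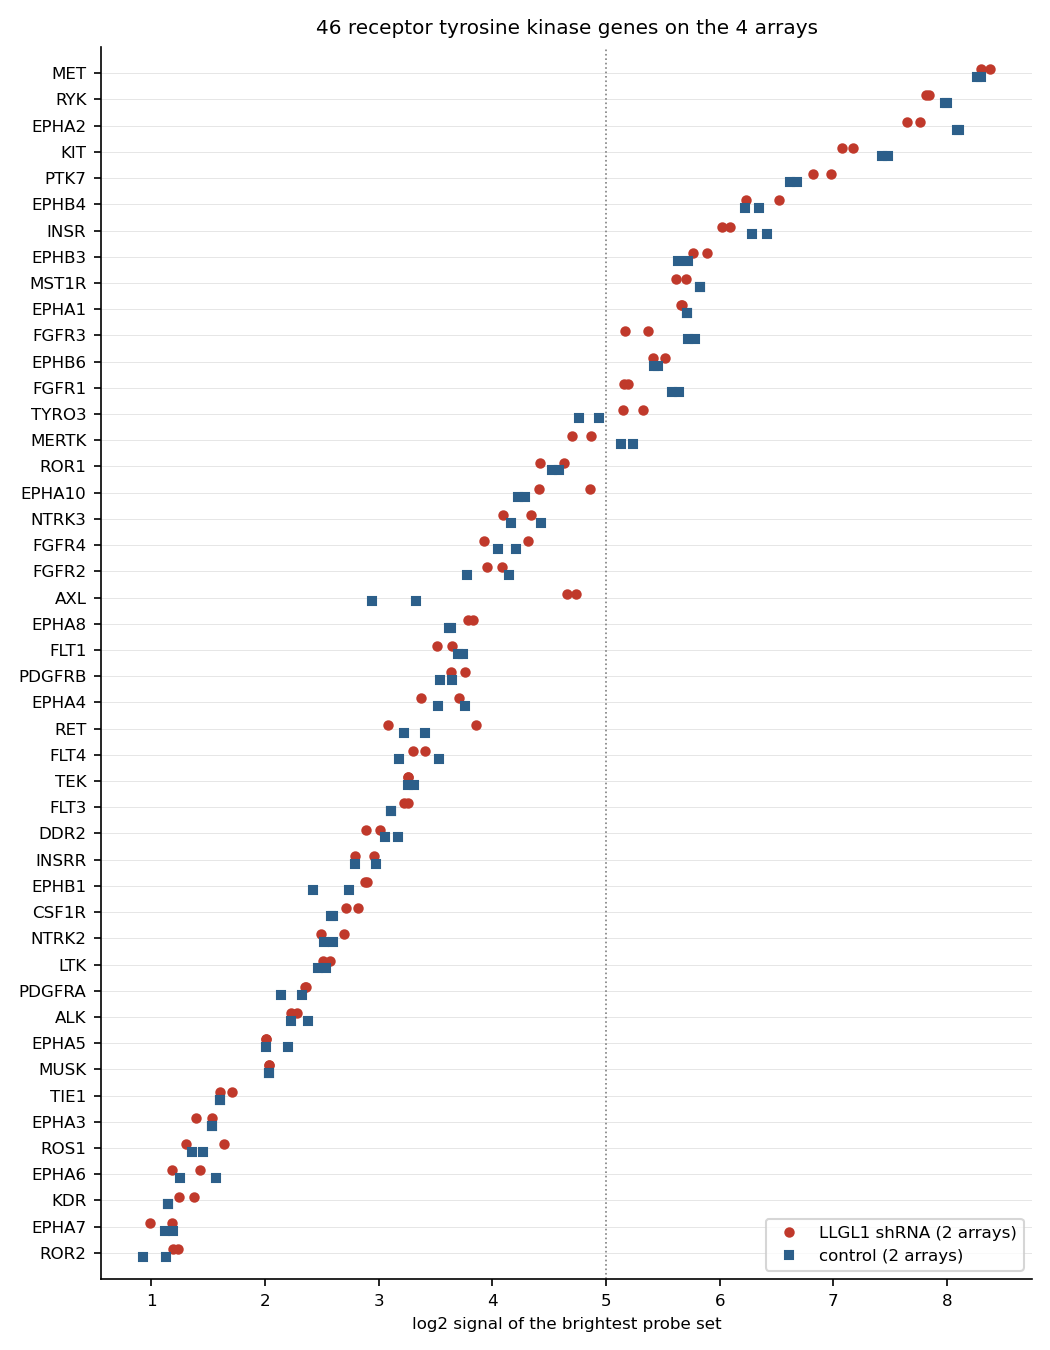
Log2 signal of the kept probe set of each of 46 receptor tyrosine kinase genes (horizontal axis) on the LLGL1 shRNA arrays (circles) and the control arrays (squares), ordered by mean, with a dotted line at 5. The 2 groups of points lie close together for nearly every gene, and AXL is the widest apart.

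AXL, MERTK and TYRO3 form the TAM family, whose ligands GAS6 and protein S bridge the receptors to phosphatidylserine on cell surfaces. AXL read 4.74 and 4.65 on the LLGL1 shRNA arrays, against 3.33 and 2.94 on the control arrays. Both LLGL1 shRNA arrays were above both control arrays, and the means were 4.70 ± 0.061 and 3.13 ± 0.274 (SD, n = 2 each). This was a 2.96-fold rise (log2 1.56, SE 0.15, 95% interval 1.15 to 1.98, limma adjusted p = 0.033). AXL was the only receptor gene to differ by 1.5-fold or more. Its control level was low, below the median gene, and the authors' deposited table, which lists 294 probe sets, gives the same AXL probe set a ratio of 2.96 and an unadjusted p of 0.0157. No other receptor gene appears there.

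The second AXL probe set moved in the same direction by less. It read 3.57 and 3.61 on the LLGL1 shRNA arrays, against 2.99 and 3.03 on the control arrays, a difference of 0.58. With the mean of both probe sets AXL differed by 1.07 (limma adjusted p = 0.0217). With each probe set tested on its own, neither of the AXL probe sets passed (adjusted p = 0.0518 for each), and no other probe set of a receptor gene had a lower adjusted p. The call also needs all 4 arrays: without any 1 of them the difference was 1.37 to 1.76, and limma called no gene in such a fit.

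TYRO3 and MERTK differed in opposite directions without passing. TYRO3 read 5.15 and 5.32 on the LLGL1 shRNA arrays, against 4.76 and 4.94 on the control arrays, a difference of 0.39 (95% interval 0.10 to 0.67, limma adjusted p = 0.107). MERTK, best known for the uptake of dying cells by phagocytes, read 4.87 and 4.70 on the LLGL1 shRNA arrays, against 5.14 and 5.24 on the control arrays, a difference of -0.40 (-0.64 to -0.17, adjusted p = 0.075). The arrays of the groups did not overlap in either gene. MERTK differed by less when its 3 probe sets were averaged (-0.22, adjusted p = 0.128) and in its probe set without a suffix (-0.093, adjusted p = 0.718). That unsuffixed probe set had a mean log2 of 1.12 and the remaining one 2.75. Such low signal limits what can be read from either. MERTK passed with median centring, cyclic loess and trend and robust moderation, and TYRO3 with trend and robust moderation and among genes of mean log2 at least 5. Neither ligand gene passed. GAS6 read 8.15 and 8.13 on the LLGL1 shRNA arrays, against 8.06 and 8.10 on the control arrays (difference 0.06, adjusted p = 0.525), and PROS1, which encodes protein S, differed by -0.12 (adjusted p = 0.369).

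The sequences before the transcription starts of the TAM genes are shown because the measured directions differ within a small family. Only AXL passed the test, and a link between motifs and direction was not tested. The windows are 250 bases before each start, on the plus strand, from RefSeq on GRCh38.p14. Capitals mark 4 motifs searched on both strands: the GC box bound by SP1-type factors (GGGCGG), the AP-1 element (TGANTCA), the core of the TEAD element (GGAATG) and the E-box that ZEB and SNAI repressors bind (CACCTG). AXL has 2 listed starts, at chr19:41218973-41219222 and chr19:41226505-41226754, MERTK has chr2:111898357-111898606, and the first of the TYRO3 windows is chr15:41558962-41559211.
AXL upstream window: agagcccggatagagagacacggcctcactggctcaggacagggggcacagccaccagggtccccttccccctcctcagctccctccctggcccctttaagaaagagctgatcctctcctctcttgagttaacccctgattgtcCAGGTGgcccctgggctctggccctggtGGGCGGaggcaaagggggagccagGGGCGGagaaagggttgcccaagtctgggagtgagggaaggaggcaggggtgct
AXL downstream window: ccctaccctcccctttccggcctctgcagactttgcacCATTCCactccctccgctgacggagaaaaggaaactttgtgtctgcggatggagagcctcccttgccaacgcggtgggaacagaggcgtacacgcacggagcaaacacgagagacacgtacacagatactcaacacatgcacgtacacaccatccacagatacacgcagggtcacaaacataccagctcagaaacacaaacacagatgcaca
TYRO3 first window: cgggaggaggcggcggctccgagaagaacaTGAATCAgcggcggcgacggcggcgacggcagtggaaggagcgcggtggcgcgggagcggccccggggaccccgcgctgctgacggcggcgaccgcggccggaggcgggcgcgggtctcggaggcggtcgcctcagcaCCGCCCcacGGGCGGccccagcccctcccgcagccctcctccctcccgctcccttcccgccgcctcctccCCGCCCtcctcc
MERTK window: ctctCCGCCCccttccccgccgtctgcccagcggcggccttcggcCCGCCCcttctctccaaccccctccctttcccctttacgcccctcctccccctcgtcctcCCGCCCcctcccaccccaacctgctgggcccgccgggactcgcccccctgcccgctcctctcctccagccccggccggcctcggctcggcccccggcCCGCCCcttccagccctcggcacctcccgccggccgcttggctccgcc
The upstream AXL window held GC boxes 78 and 54 bases before the start and the E-box 106 bases before it, and the downstream one a TEAD core 212 bases before. The first TYRO3 window held GC boxes 82, 73 and 12 bases before the start and an AP-1 element 220 bases before, and the MERTK window held 4 GC boxes. A second TYRO3 window, chr15:41559722-41559971, held none of the 4 motifs and is not printed. None of the marked motifs overlapped another. Across 35114 RefSeq promoters of this length, 42.6% held a GC box, 6.57% an AP-1 element, 11.9% a TEAD core and 17.5% the E-box. Of 65 windows matched for 42 receptor genes, 41 held a GC box (63.1%), 3 an AP-1 element, 5 a TEAD core and 11 the E-box. A match is a run of letters and not a measured binding site, and these arrays do not tell which start was used.

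FGF receptors signal with heparan sulfate as co-receptor, and splice forms of FGFR1 to FGFR3 set which FGFs they bind. FGFR1 read 5.16 and 5.20 on the LLGL1 shRNA arrays, against 5.58 and 5.64 on the control arrays. Both LLGL1 shRNA arrays lay below both control arrays, and the means were 5.18 ± 0.0254 and 5.61 ± 0.0407 (SD, n = 2 each). FGFR1 fell by 0.44 on the log2 scale (SE 0.0552, 95% interval -0.59 to -0.28, limma adjusted p = 0.0394), which is 1.35-fold lower. The other 6 FGFR1 probe sets differed by -0.30, -0.22, 0.16, -0.13, -0.47 and -0.01. With the mean of all 7 in place of the brightest one the difference was -0.20 and did not pass (adjusted p = 0.113).

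FGFR3 showed a slightly wider difference that did not pass. It read 5.17 and 5.37 on the LLGL1 shRNA arrays, against 5.72 and 5.78 on the control arrays, a difference of -0.48 (95% interval -0.73 to -0.24, adjusted p = 0.0621). Its LLGL1 shRNA arrays were both below its control arrays but further from each other than those of FGFR1. It passed with median centring, cyclic loess, trend and robust moderation, and among genes of mean log2 at least 5. Its other, dim probe set differed by 0.089, and the mean of both by -0.20 (adjusted p = 0.102). FGFR2 differed by 0.05, though by -0.08 when its 11 probe sets were averaged, and FGFR4 by -0.01, with arrays of the groups overlapping in both.

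**Figure D2:**
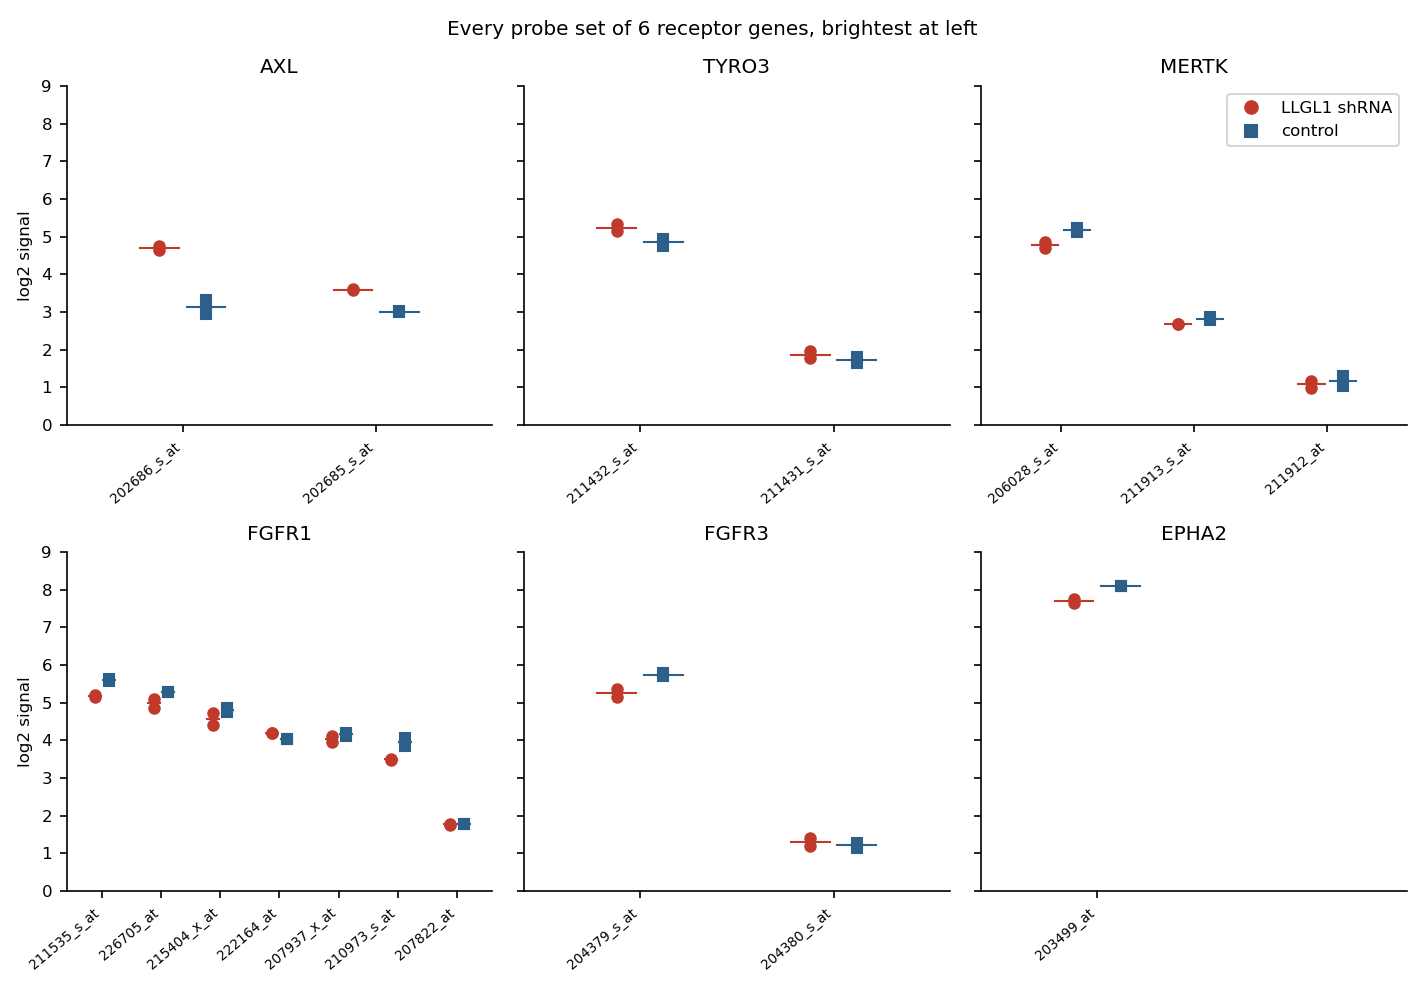
Log2 signal (vertical axis) of every single-symbol probe set of AXL, TYRO3, MERTK, FGFR1, FGFR3 and EPHA2 on the LLGL1 shRNA arrays (circles) and the control arrays (squares), with short lines at the group means. Both AXL probe sets were higher on the LLGL1 shRNA arrays, whereas the 7 FGFR1 probe sets differed between -0.47 and 0.16.

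MET, the receptor for HGF, was the brightest of the receptor genes and showed no detectable difference. It read 8.37 and 8.30 on the LLGL1 shRNA arrays, against 8.26 and 8.30 on the control arrays (difference 0.06, 95% interval -0.11 to 0.22, limma adjusted p = 0.607). The groups met only at 8.30, a value that 1 array of each group shared exactly. The 95% interval lay within a 1.5-fold difference either way. HGF, mostly a product of fibroblasts, was dim at 3.36 and 3.51 on the LLGL1 shRNA arrays, against 3.51 and 3.21 on the control arrays. MST1R, the receptor for macrophage-stimulating protein, differed by -0.17 (adjusted p = 0.169) and its ligand MST1 by -0.24 (adjusted p = 0.12).

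Of the receptors for PDGF, SCF, CSF1 and FLT3 ligand, KIT alone was bright. KIT, the SCF receptor, read 7.17 and 7.07 on the LLGL1 shRNA arrays, against 7.42 and 7.48 on the control arrays, a difference of -0.33 (95% interval -0.51 to -0.15, adjusted p = 0.0677). The groups did not overlap, and KIT passed under the same 4 alternatives as FGFR3. KITLG, which encodes SCF, differed by 0.17 (adjusted p = 0.242). PDGFRA (0.12), PDGFRB (0.11), CSF1R (0.18) and FLT3 (0.14) had mean signals below 4. With KIT counted, 0 of these 5 genes passed limma's test (background 6.28%). CSF1R was higher (background 14.5%) and KIT lower (background 13.7%) at an unadjusted p below 0.05. The VEGF receptors FLT1, KDR and FLT4 were also below 4, with differences of -0.14, 0.16 and -0.0010.

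INSR, the insulin receptor, read 6.09 and 6.02 on the LLGL1 shRNA arrays, against 6.41 and 6.29 on the control arrays. Its difference of -0.30 did not pass (adjusted p = 0.0944), although the groups did not overlap. The other 4 INSR probe sets differed by -0.072, -0.061, 0.084 and 0.24, and the mean of all 5 by -0.022 (adjusted p = 0.846). Its relative INSRR, an orphan receptor that senses alkaline pH, differed by -0.0082. RET, the receptor for the GDNF family, read 3.08 and 3.86 on the LLGL1 shRNA arrays, against 3.41 and 3.22 on the control arrays, and its replicates lay further apart than the group means. ROS1, ALK and LTK differed by 0.06, -0.05 and 0.04, and the neurotrophin receptors NTRK2 and NTRK3 by 0.03 and -0.08. The collagen receptor DDR2 differed by -0.16, and the angiopoietin receptor TEK and its partner TIE1 by -0.02 and 0.05. None of these 11 genes passed (background 6.28%), and none but DDR2 and INSR, both lower, had groups that did not overlap (background 24.7% lower).

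The Wnt-binding receptors held 2 of the brightest 6 members. RYK, a pseudokinase co-receptor for Wnt proteins, read 7.84 and 7.82 on the LLGL1 shRNA arrays, against 7.98 and 8.00 on the control arrays (difference -0.16, limma adjusted p = 0.148), and the mean of its 3 probe sets differed by -0.27 (adjusted p = 0.0685). PTK7, a pseudokinase of planar cell polarity, read 6.98 and 6.82 on the LLGL1 shRNA arrays, against 6.68 and 6.62 on the control arrays (difference 0.25, adjusted p = 0.147). The dim second PTK7 probe set differed by 0.044 (adjusted p = 0.833). In the brightest probe sets neither pair of groups overlapped, and the 2 genes differed in opposite directions. WNT5A, a ligand of ROR1, ROR2 and RYK, differed by 0.06, and ROR1 and ROR2 by -0.03 and 0.18. MUSK, the agrin-responsive receptor of muscle, read 2.04 on all 4 arrays.

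The EPH receptors, which bind membrane-tethered ephrins on neighbouring cells, were the largest class. Of the 13 measured, 0 passed limma's test (background 6.28%). At an unadjusted p below 0.05, 1 was higher (background 14.5%) and 1 lower (background 13.7%). EPHA2, the brightest of them and a receptor enriched in epithelial tumours, read 7.76 and 7.65 on the LLGL1 shRNA arrays, against 8.09 and 8.10 on the control arrays. Both LLGL1 shRNA arrays were lower, by 0.39 in the mean, and the difference lay just outside the threshold (95% interval -0.57 to -0.21, adjusted p = 0.0537). It passed in 5 of the alternatives, with median centring, cyclic loess, trend and robust moderation, among genes of mean log2 at least 5, and with the mean of all probe sets. EPHA2 has 1 probe set, so averaging left its own values unchanged and did not test the choice of probe set. EPHB4 read 6.52 and 6.23 on the LLGL1 shRNA arrays, against 6.22 and 6.35 on the control arrays, with overlapping groups (difference 0.09, adjusted p = 0.701).

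The dimmer EPH receptors lay on both sides of 0. EPHA10, a receptor without kinase activity, read 4.86 and 4.41 on the LLGL1 shRNA arrays, against 4.29 and 4.23 on the control arrays (difference 0.38, adjusted p = 0.254), and the mean of its 3 probe sets differed by 0.21. EPHB1 (mean log2 2.73) differed by 0.31, but by -0.087 in its brightest probe set without a suffix, which was dimmer still (1.23). EPHA8 differed by 0.18, EPHB3 by 0.15 and EPHB6, another receptor without kinase activity, by 0.03. EPHA1, EPHA3, EPHA4, EPHA5, EPHA6 and EPHA7 differed by -0.05 to -0.10. Of these 6, the arrays of the groups did not overlap in EPHA1 alone, whose difference was -0.05. The dimmer EPHA1 probe sets differed by -0.30 and -0.33 (adjusted p = 0.0875 and 0.179 over all probe sets), and the mean of all 3 by -0.23 (adjusted p = 0.0934).

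**Figure D3:**
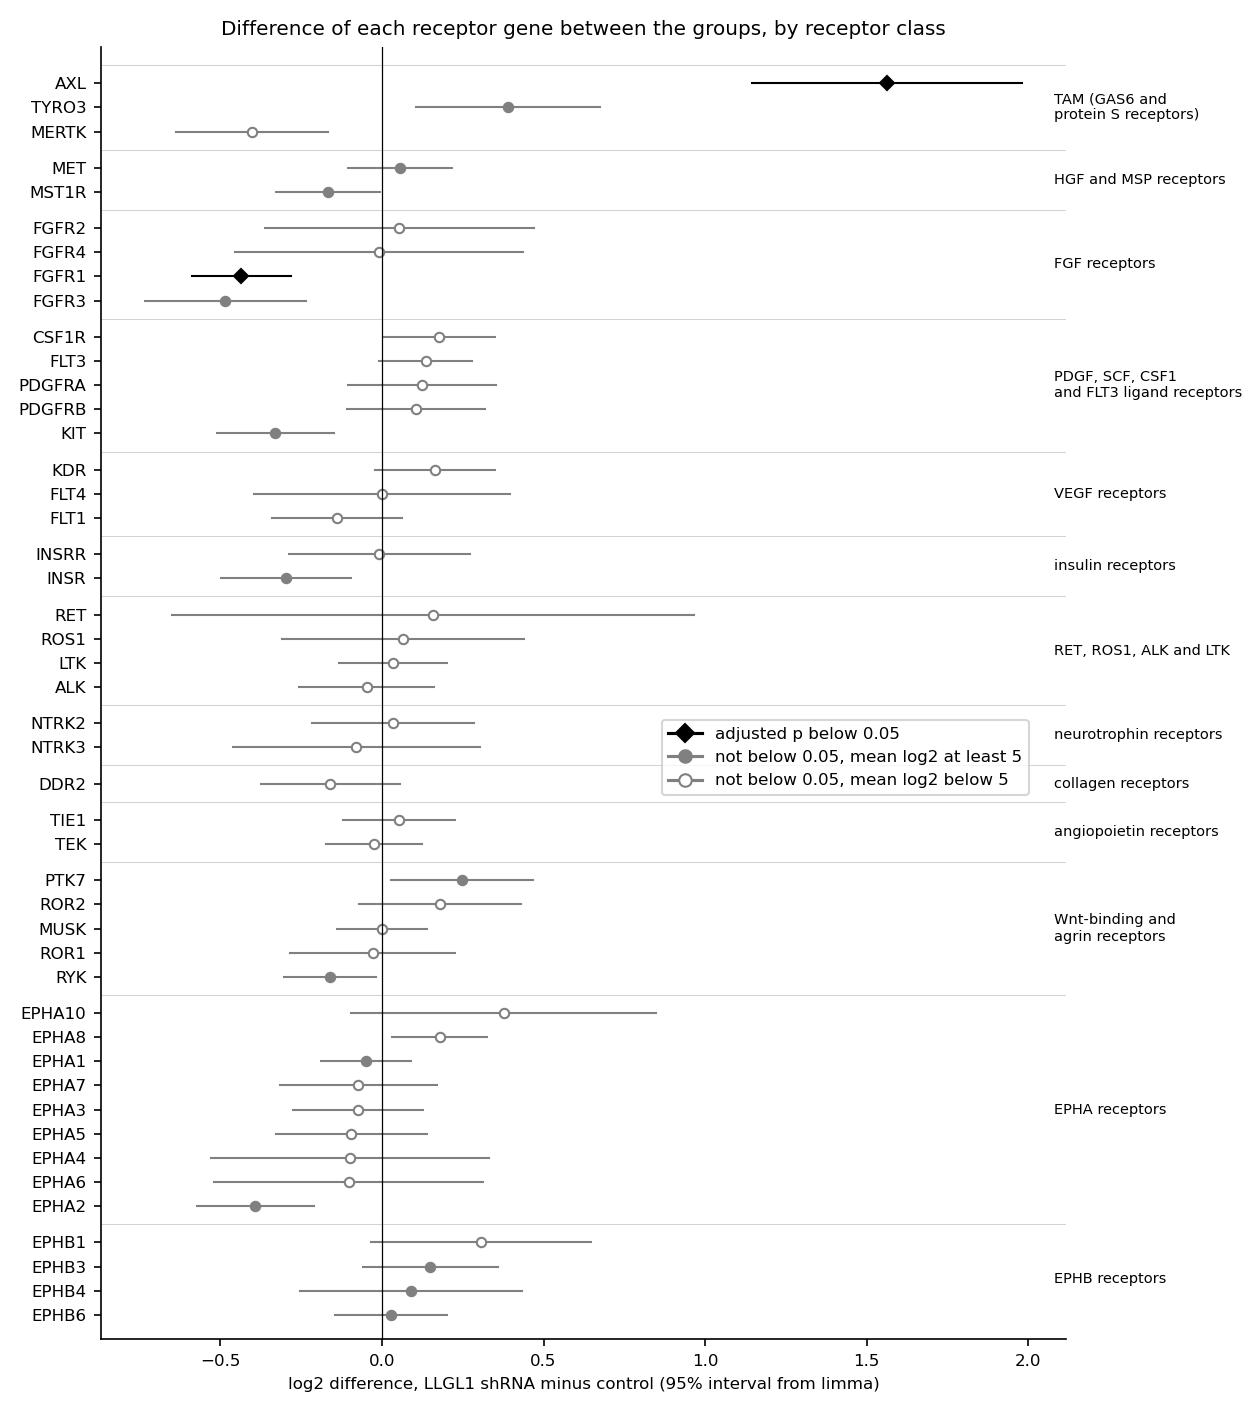
Log2 difference of each receptor gene, LLGL1 shRNA minus control, with its 95% interval from limma, grouped by receptor class. Black diamonds mark AXL at 1.56 and FGFR1 at -0.44, filled grey circles genes of mean log2 at least 5, and open circles dimmer genes.

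The split of receptor calls depended on scaling: with each array centred on its median, 1 receptor gene was higher (background 3.39%) and 5 were lower (background 5.79%), and all genes gave 671 higher and 1145 lower, against 635 and 607 as deposited. Cyclic loess gave the same receptor counts (backgrounds 6.04% and 4.56%). In either direction the backgrounds were 9.18% and 10.6%. Median centring, which used the median of the kept probe sets on each array, lowered every difference by the same amount. It moved the median difference of all genes from 0.012 to -0.038, and cyclic loess moved it to 0.018. Under both scalings AXL was the higher gene, and MERTK, FGFR1, FGFR3, KIT and EPHA2 were the lower ones. Trend and robust moderation called 9 receptor genes (background 19.9%), and a fit on genes of mean log2 at least 5 called 9 of the 14 in it (background 47%). INSR (lower) and PTK7 (higher) were called in both of these fits, and MST1R and RYK (both lower) in the latter alone. The mean of all probe sets called AXL and EPHA2 (background 6.12%), and testing each kept probe set among all probe sets neither (background 0.971%). EPHA2 has 1 probe set, so averaging did not change its values. Preferring the brightest probe set without an x or s suffix, which marks probes that match several transcripts, called AXL alone (background 4%). That choice left 8 receptor genes on a suffixed probe set because they have no other, AXL, FGFR3, KIT, RYK and TYRO3 among them, so it did not change their values. A threshold of 0.1 called 7 receptor genes (background 17%), and a 2-fold minimum left AXL (background 0.642%).

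Genes that act with the receptors were counted in 6 lists. Of 145 listed genes 133 were measured and 12 passed (9.02%, background 6.28%), 2 of them higher and 10 lower, with a median difference of -0.05 against 0.01 for all genes. Pooled, the related genes were brighter than the receptors, with 66 of 133 at a mean log2 of at least 5, but not the growth factor ligands (12 of 46) or co-receptors (4 of 15). Bright genes were called more often across the whole table.

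Among 46 growth factor ligands none rose and 2 fell (4.35% called, background 6.28%), and the median difference was -0.03. VEGFA, the main ligand of KDR and FLT1, read 5.65 and 5.64 on the LLGL1 shRNA arrays, against 6.31 and 6.43 on the control arrays. It fell by 0.72 (limma adjusted p = 0.0318), while the mean of its probe sets differed by -0.29 and did not pass (adjusted p = 0.0674). PDGFC, a PDGF receptor alpha ligand, read 5.80 and 5.72 on the LLGL1 shRNA arrays, against 6.21 and 6.38 on the control arrays, and fell by 0.54 (adjusted p = 0.0498). In both genes the arrays labelled LLGL1 shRNA were the lower ones. Of 8 ephrins 1 fell (12.5% called, background 6.28%), and this was EFNB2, a ligand of EPHB4 and other EPHB receptors. EFNB2 read 8.93 and 8.94 on the LLGL1 shRNA arrays, against 9.43 and 9.47 on the control arrays, and fell by 0.52 (adjusted p = 0.0334). The ephrin median was -0.20.

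Of 15 co-receptors 0 passed limma's test (background 6.28%), with 2 lower at an unadjusted p below 0.05 (background 13.7%). The widest difference was that of SDC4, a heparan sulfate proteoglycan that presents FGFs, at 7.39 and 7.38 on the LLGL1 shRNA arrays, against 7.64 and 7.74 on the control arrays (difference -0.30, adjusted p = 0.0722). Of 34 adaptors and effectors 1 rose and 3 fell, with a median of -0.05. That is 11.8% called, against 6.28% of all genes and 11.2% of genes of mean log2 at least 5. The docking proteins GAB1 and IRS1 fell by 0.52 and 0.45 (adjusted p = 0.0331 and 0.0356), and the RAS exchange factor SOS2 by 0.48 (adjusted p = 0.0369). IRS2, the other main docking protein of insulin signalling, rose by 0.38 (adjusted p = 0.0458). With the mean of probe sets GAB1 (-0.34, adjusted p = 0.0816) and SOS2 (-0.06, adjusted p = 0.523) did not pass.

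Of 21 genes listed as negative regulators none rose and 2 fell, and the median was -0.20. That is 9.52% called, against 6.28% of all genes and 11.2% of genes of mean log2 at least 5. Of the 21, 16 were that bright. HGFAC, on that list, encodes HGF activator, a protease that is not a negative regulator. It was dim (mean log2 2.01), differed by 0.08 and did not pass. PTPN12, a tyrosine phosphatase, fell by 0.48 (adjusted p = 0.0353), and SOCS6, an adaptor for receptor degradation, by 0.52 (adjusted p = 0.0493). Averaged over probe sets, PTPN12 differed by -0.28 (adjusted p = 0.087) and SOCS6 by -0.17 (adjusted p = 0.32). In 13 of the 21 the arrays of the groups did not overlap in the lower direction (background 24.7%, and 38.2% of genes of mean log2 at least 5). Of 9 proteases and ligand-processing genes 1 rose and 2 fell (33.3% called, background 6.28%, and 11.2% of genes of mean log2 at least 5). TIMP3, an inhibitor of sheddases, read 6.43 and 6.42 on the LLGL1 shRNA arrays, against 7.39 and 7.30 on the control arrays, and fell by 0.92 (adjusted p = 0.0246). ADAM10, a sheddase that can cleave AXL and MET, fell by 0.51 (adjusted p = 0.0341). ST14, the protease matriptase, which activates HGF, read 8.23 and 8.15 on the LLGL1 shRNA arrays, against 7.67 and 7.73 on the control arrays, and rose by 0.49 (adjusted p = 0.0389), but differed by 0.36 when its probe sets were averaged (adjusted p = 0.0843).

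**Figure D4:**
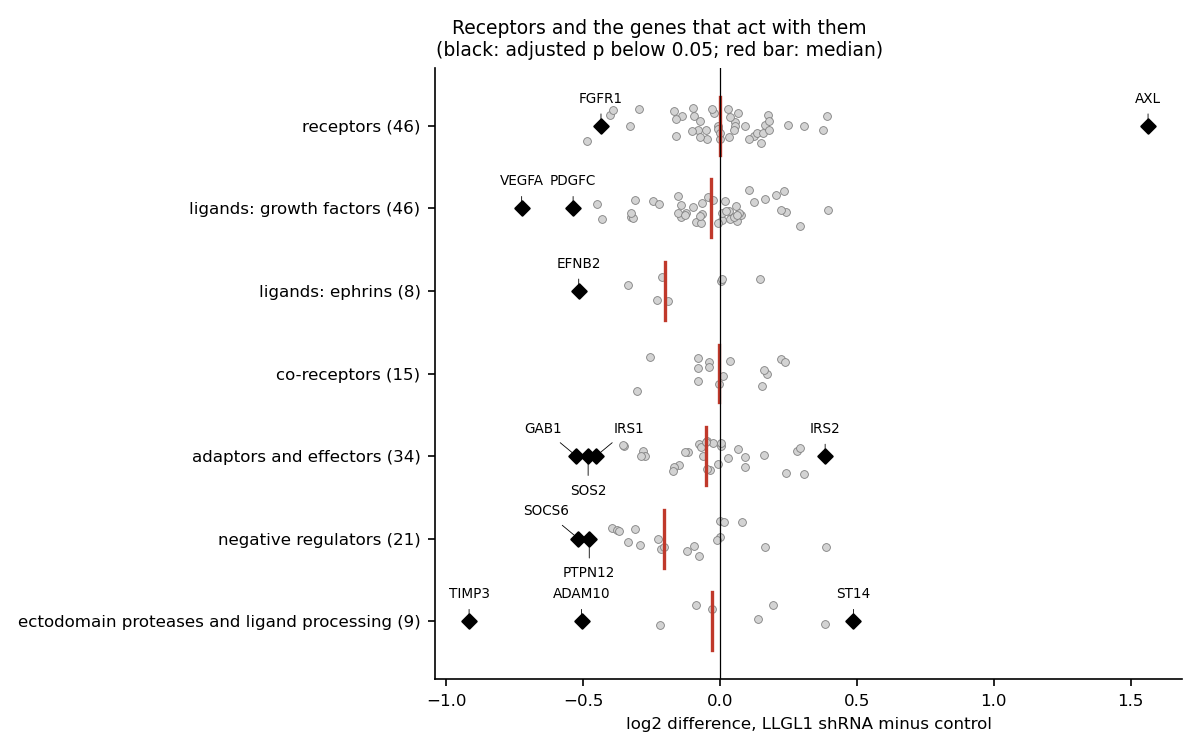
Log2 difference, LLGL1 shRNA minus control (horizontal axis), of the receptor genes and of 6 lists of genes that act with them, with the number measured in brackets. Black diamonds passed the test, grey circles did not, and red bars are list medians, which run from -0.20 for negative regulators and ephrins to near 0 for the receptors. The negative regulator list includes HGFAC, which encodes HGF activator.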

How the data were processed

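Total RNA (100 ng) gave biotinylated cRNA for Affymetrix arrays, per the labels' protocols. The authors deposited log2 signals of 54675 probe sets on 4 arrays, made with RMA and Partek 6.6, per the submitters' processing notes. The background method is not given in the sources used. A second deposited table holds the authors' ratio and fold change, unadjusted p-value and F score for 294 probe sets, per the file headers. Its ratio matched the value table, LLGL1 shRNA over control, within 1.68e-05 on the log2 scale.

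Probe sets with several symbols (1801), none (11777) or a control role (62) were left out. Of 41091 probe sets with 1 symbol in the platform annotation, the brightest was kept for each of 19775 genes. Differences were fitted with lmFit and eBayes in limma 3.58.1 (R 4.3.3), two-sided, Benjamini-Hochberg adjusted over all genes, threshold 0.05; 2 residual degrees of freedom limit the precision. The procedure was tested on simulated data. Values on every array were due for genes past the threshold, receptor genes differing by 1.5-fold or more, and the brightest 6 receptor genes; lists of related genes were named by calls, or by the widest difference. Others were named after their values were seen. The members and lists were chosen with earlier results of these data known.

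Alternatives covered scaling, moderation, a mean log2 minimum of 5, the choice of probe set, the threshold, a replicate block and leaving out each array.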

Additional observations from a re-analysis of the deposited data

How the results depend on the processing

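With the fit as reported, 1242 genes, 2 receptor genes and 12 related genes were called. For all genes, receptor genes and related genes in turn, cyclic loess called 2096, 6 and 20, trend and robust moderation 3935, 9 and 32, genes of mean log2 at least 5 alone 3939, 9 and 35, and a threshold of 0.1 called 3356, 7 and 34. Median centring called 6 receptor genes. With the brightest probe set without an x or s suffix where a gene has one, 791 genes and 1 receptor gene were called. That gene is AXL, which has only suffixed probe sets and so was not tested by this choice. The mean of all probe sets called 7 related genes. With each probe set tested on its own, limma called 192, 0 and 1, with 11 receptor genes at an unadjusted p below 0.05. Adding a 2-fold minimum left 127, 1 and 0. Receptor genes of mean log2 at least 5, taken from the fit on all genes, gave 1 call, an alternative chosen after seeing the data. The replicate number as a block left 0, 0 and 0 called by limma, with 4284 genes, 9 receptor genes and 41 related genes at an unadjusted p below 0.05. Same-numbered arrays did not deviate together (r = -0.13 across 19775 genes). With 2 arrays per group this is 1 comparison, so it cannot settle whether the numbers pair the arrays. The crossed pairing, added after seeing the data, also left 0, 0 and 0, with 5520, 10 and 46 at an unadjusted p below 0.05. Each fit without 1 array left 0 to 0 calls in all 3 counts, with 3496 to 4546 genes at an unadjusted p below 0.05 and a lone array assumed to vary like the other group. The fewer samples or residual degrees of freedom of these fits come with their construction.

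AXL stayed at 1.56 but did not pass with each probe set on its own (adjusted p = 0.0518) or with the replicate block (adjusted p = 0.151), and ran from 1.37 to 1.76 without 1 array (adjusted p 0.188 to 0.262). FGFR1 did not pass with the mean of probe sets (-0.20), in the brightest unsuffixed probe set (-0.30), with each probe set on its own (-0.44, adjusted p = 0.0594) or with the block (-0.44, adjusted p = 0.151), and ran from -0.46 to -0.41 without 1 array. Signs turned, none past the threshold, with the mean of probe sets for LLGL1 (0.0079), MET (-0.033), FGFR2 (-0.081), FGFR4 (0.072), ROS1 (-0.0040), ALK (0.018), LTK (-0.091), NTRK2 (-0.033) and ROR1 (0.11), in the brightest unsuffixed probe set for FGFR2 (-0.0018) and EPHB1 (-0.087), and with median centring for LTK (-0.015), NTRK2 (-0.015) and EPHB6 (-0.022). Leaving out 1 array turned the sign of ALK (-0.12 to 0.027), EPHA4 (-0.26 to 0.069), EPHA6 (-0.26 to 0.054), EPHA7 (-0.17 to 0.021), EPHB4 (-0.055 to 0.24), EPHB6 (-0.022 to 0.078), FGFR2 (-0.13 to 0.24), FGFR4 (-0.20 to 0.19), FLT4 (-0.18 to 0.18), INSRR (-0.10 to 0.082), NTRK2 (-0.064 to 0.13), NTRK3 (-0.21 to 0.053), RET (-0.23 to 0.55), ROR1 (-0.13 to 0.075), ROS1 (-0.10 to 0.23) and TEK (-0.050 to 0.0034). The causes were not tested. The low signal of the 16 receptor genes below 3 limits what can be read from them.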

Other observations

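Dimmer probe sets of several receptor genes, among them EPHA4, FGFR2 and RYK, differed more between the groups than the brightest one. One EPHA4 probe set read 2.18 and 2.40 on the LLGL1 shRNA arrays, against 3.20 and 2.81 on the control arrays, a difference of -0.72 that did not pass limma's test over all probe sets (adjusted p = 0.117), while the brightest EPHA4 probe set differed by -0.10. All LLGL1 shRNA values of that probe set lay below the control values. For FGFR2, 2 of the dimmer probe sets differed by -0.33 and -0.38 (adjusted p = 0.141 and 0.0861), against 0.05 for the brightest. Both dimmer RYK probe sets differed by -0.33 (adjusted p = 0.0919 and 0.115), against -0.16 for the brightest. These probe sets were picked after their values were seen.

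Some deposited values repeat exactly between arrays. Of the kept probe sets of the 46 receptor genes, 8 share a value between arrays and that of MUSK has 1 value on all 4, and over all 19775 genes 2526 share a value and 128 have 1 value throughout. The 14 receptor genes averaging 5 or more on the log2 scale include 1 such gene, MET.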
